A study of Homo sapiens with 42 samples.

Results

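Live higher-order alpha satellite arrays were followed through 42 libraries of DNA, topoisomerase 2 pulldowns and their inputs, from KG-1, an established line of human acute myeloid leukaemia cells. They were chosen by name: a row of the count table was taken where its name began with hor_ and its bracketed array name held H, a number and a capital L. This gave 41 of the 120 higher-order rows and of the 2523 regions in the table, and no measured value entered the choice. The name S2C18H1L, for example, gives the suprachromosomal family (S2), the chromosome (C18), the array's number (H1) and its live status (L). In the etoposide series, cells had either 100 µM etoposide for 1 h or no drug, with 4 replicas. In the mitoxantrone series they had either 20 µM mitoxantrone for 1 h or no drug, with 3 replicas. Each replica held a TOP2A pulldown, a TOP2B pulldown and an input library under both treatments, which made 12 groups. All came from the 1 cell line, no formaldehyde was used, and all eluted DNA was treated with TDP2, which frees DNA ends from bound TOP2, and cut with BsmAI. The labels do not say whether the replicas were separate cultures, so p-values measure the spread between these libraries, which may be technical.

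Alpha satellite is the tandem repeat of primate centromeres. In a higher-order array a block of diverged monomers is itself repeated many times with little change, and on each chromosome the array called live is the one on which the kinetochore normally assembles. The suprachromosomal families group arrays by the monomer types they are built from, so that arrays of 1 family on different chromosomes resemble each other. Topoisomerase 2 passes one DNA duplex through a cut in another. TOP2A is needed to separate sister centromeres at mitosis, and TOP2B is also present in cells that do not divide. Etoposide and mitoxantrone both block the resealing of the cut. The question was which arrays held a larger or smaller share of region reads with drug. Shares do not give the amount of trapped enzyme, since a change common to all regions would leave them as they were. The live status comes from the annotation of the T2T-CHM13 genome and was not measured in KG-1.

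The live rows lay on 24 chromosomes and held 91080 reads in all. Family S2 had 19 rows on 11 chromosomes and 44.0% of these reads. Family S1 had 13 rows on 7 chromosomes and 33.8%, and S3 had 4 rows on 3 chromosomes (11, 17 and X) and 14.9%. The families with few rows were S01 (1 row on chromosome 6, 3.89%), S01/1 (3 rows on chromosome 3, 3.25%) and S4 (1 row on chromosome Y, 0.220%). By chromosome, the live reads ran from 200 on Y, 851 on 13 and 1343 on 21 to 7342 on 17, 8292 on 16 and 8599 on 18. These read numbers also depend on the length of each region, which was not used here, so they give no order of TOP2 density among arrays. The names of 23 rows pointed to 1 chromosome and those of 18 to several, such as S2C13/21H1L, whose repeats chromosomes 13 and 21 share. Reads from such near-identical copies may have been split or set aside in counting, and single values of those rows are uncertain for that reason. Some rows also list arrays without the L. These are S2C20H2 in hor_18_4 and hor_18_6, S1CMH3d in hor_19_14, S3C11H3d in hor_11_2, and S2C2H2-B and S2C20H5d in hor_2_3. The reads of these rows cannot be divided between live and other arrays.

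Read depth was low for single arrays. A library held 75 to 17719 live reads (median 691), in 24 to 41 of the rows. Of the 1722 values, 1 for each array and library, 18.1% were 0 and 53.9% were under 10 reads. A mean of at least 20 reads was reached by 27 rows, with hor_13_3 just inside at 20.3 and hor_18_6 just outside at 17.9. Reads were present in all 42 libraries for 17 rows, and in fewer than 21 libraries for 6. The 8 rows with the highest mean counts scaled to region reads (CPM; hor_8_2, hor_18_5, hor_17_2, hor_16_4, hor_19_13, hor_22_9, hor_12_2 and hor_1_5) held 51.6% of all live reads. No single array made up the class: the largest array of a library had 7.98% to 23.8% of its live reads.

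The libraries as a whole held 552909 to 59639786 reads, of which 23900 to 3207823 lay in named regions. Reads set aside for low mapping quality were 21.1% to 68.3% of a library. Their origin is not in the table, so a share given here is of the reads that could be placed. The replicas were sequenced in 5 orders. Etoposide replica 1 had 38 bp reads, mitoxantrone replica 1 had 100 bp reads and the others had 50 bp reads, and etoposide replica 2 and mitoxantrone replica 3 were each alone in their order, as were both replicas of other read length. For these 4 replicas, replica and order (and read length in those with 38 or 100 bp) cannot be told apart.

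Without drug, the live arrays took very different shares of region reads in different replicas. In input the shares were 0.0853%, 0.535%, 0.146% and 0.0873% in etoposide-series replicas 1 to 4. In mitoxantrone-series input they were 0.285%, 0.0438% and 0.552%. The lowest and highest of these untreated inputs differed more than any untreated pulldown differed from its own input, so changes of share with drug are given within replicas. The fitted drug effects below, with their tests and splits of rows, come from fits with no replica term unless a block is named. The share over all 42 libraries ran from 0.0246% to 0.999% with a median of 0.263%.

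**Figure D1:**
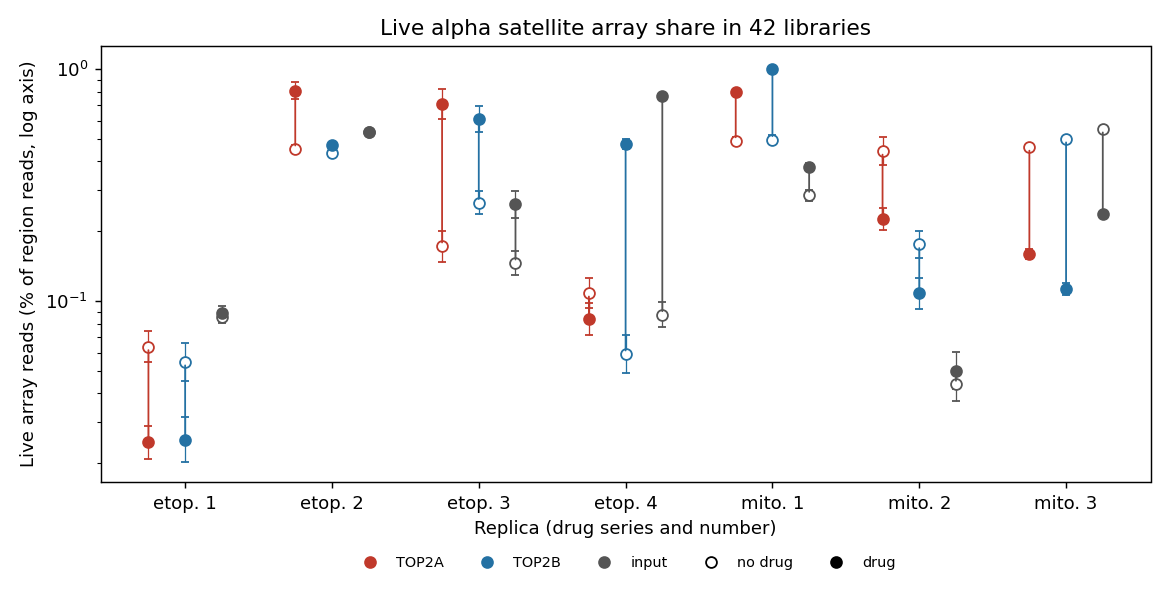
Live array reads as a percent of region reads (log axis) in each of the 42 libraries, by replica of the etoposide (etop.) and mitoxantrone (mito.) series; open points had no drug, filled points had drug, a line joins the pair, and bars are 95% Wilson intervals, which cover counting error only. The drug library is higher in some replicas and lower in others, going from 0.552% to 0.237% in the input of mitoxantrone replica 3 and from 0.0873% to 0.761% in that of etoposide replica 4.

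In TOP2A pulldown the live arrays had no common direction with etoposide. Their share was 0.0637%, 0.452%, 0.173% and 0.108% without drug in replicas 1 to 4, and 0.0246%, 0.808%, 0.707% and 0.0839% with etoposide. The groups overlapped, and replicas 2 and 3 were higher with drug while replicas 1 and 4 were lower. The within-replica log2 changes were -1.37, 0.84, 2.03 and -0.37, with a mean of 0.28 (SD 1.48, n = 4). Leaving out each replica in turn moved the mean between -0.30, without replica 3, and 0.83, without replica 1.

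The replicas also differed in how many single arrays moved. Of the 27 arrays with a mean of at least 20 reads, 4 were higher with etoposide in TOP2A in replica 1, 25 in replica 2, 25 in replica 3 and 10 in replica 4. The chromosome X array hor_X_1 (S3CXH1L) had the highest mean change: its reads were 3, 59, 3 and 2 without drug and 8, 16, 9 and 4 with it, a mean log2 change of its share of 1.33 (SD 1.48, n = 4), higher in 4 of 4 replicas. Next were hor_20_2 with 1.17 (SD 1.31) and hor_18_5, the chromosome 18 array, with 1.08 (SD 1.24). For hor_18_5 the reads were 5, 145, 7 and 6 without drug and 10, 33, 12 and 14 with it, and its change lay within the spread of its replicas. At the other end were hor_3_2 with -0.75 (SD 2.04), hor_3_4 with -0.49 (SD 0.97), both of the chromosome 3 family, and hor_16_4 with -0.44 (SD 1.64). Each of these means was smaller than its SD, and the counts of hor_X_1 in replicas 1, 3 and 4 were under 10.

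Of the 41 live rows, 28 passed the filter on low counts in the etoposide series. With edgeR's quasi-likelihood test and Benjamini-Hochberg adjustment, 0 of them passed an adjusted p of 0.05 in TOP2A, where 0% of the 1068 regions tested were called. DESeq2 also called 0. At an unadjusted p under 0.05 there was 1 live row with edgeR and 2 with DESeq2. The fitted change was above 0 in 24 and below 0 in 4, with a median of 0.60 on the log2 scale against -0.05 over all regions tested. With no filter the median over all 41 rows was 0.17, with 24 above 0 and 15 below, so these fitted medians rest on which rows are kept. The replica as a block gave 0.29 over the 28 rows, and leaving out 1 replica gave medians from 0.21, without replica 3, to 0.89, without replica 1.

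The row at an unadjusted p under 0.05 was hor_16_5 (S1C16H1L,S1C1/5/19H1L), whose name points to chromosomes 16, 1, 5 and 19. It was singled out after its values were seen. It had 2, 28, 1 and 1 reads without drug in TOP2A and 1, 0, 0 and 0 with etoposide. In TOP2B it had 1, 26, 3 and 0 without drug and 3, 35, 1 and 10 with it. The fitted log2 change was -3.61 in TOP2A (SE 1.37, unadjusted p = 0.0154, edgeR adjusted p = 0.999), -4.45 (SE 1.64) relative to input and -4.11 (SE 1.67) relative to TOP2B, none past the threshold after adjustment. Nearly all of the reads were in replica 2, where the drug library had 71055 region reads against 589193 without drug. At an unchanged share, 3.38 reads would have been counted there, which is 1.13-fold a floor of 3 counts per library. This ratio takes the 28 untreated reads as exact, while their Poisson limits are 18.6 and 40.5. The upper Poisson limit for 0 reads is 3.69, above 3.38. Counting error in replica 2 alone therefore does not show the row to be lower.

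In TOP2B pulldown the live arrays were higher with etoposide in 3 of 4 replicas. The shares were 0.0548%, 0.433%, 0.266% and 0.0591% without drug and 0.0253%, 0.469%, 0.608% and 0.475% with it. The log2 changes were -1.11, 0.11, 1.19 and 3.00, with a mean of 0.80 (SD 1.74, n = 4). Replica 4 stood highest and replica 1 was lower, and the groups overlapped. Without replica 4 the mean was 0.07, and without replica 1 it was 1.44.

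Of the S2 arrays, hor_4_2 (S2C4H1L, chromosome 4) had the highest mean change in TOP2B, 1.78 (SD 1.98). Its reads were 2, 39, 1 and 1 without drug and 3, 55, 6 and 31 with it. The chromosome 19 array hor_19_13 (S1C1/5/19H1L) had 2, 125, 8 and 6 reads without drug and 6, 157, 16 and 84 with etoposide, a mean of 1.50 (SD 1.27) and higher in 4 of 4 replicas. The lowest means were those of hor_3_4 (-0.08, SD 1.88), hor_9_1 (0.02, SD 2.74) and hor_X_1 (0.09, SD 2.28). The array that was highest in TOP2A, hor_X_1, was thus among the 3 lowest in TOP2B, with an SD above its mean in both. edgeR called 0 of the 28 live rows, with 0 at an unadjusted p under 0.05, and 0% of the 1068 regions; DESeq2 called 0, with 0 at an unadjusted p under 0.05. These fits had no replica term. With the replica as a block, 2 live rows and 41 of the 1068 regions had an unadjusted edgeR p under 0.05, with 0 calls. In the fit without the block the median was 0.65, above 0 in 27 of 28 rows, against 0.07 over all regions. Without replica 4 it was 0.15, with 19 of 30 rows above 0, and without replica 2 it was 1.39.

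The input, which no antibody had touched, was at least as high with etoposide in every replica. Its live shares were 0.0853%, 0.535%, 0.146% and 0.0873% without drug and 0.0891%, 0.536%, 0.261% and 0.761% with it. The log2 changes were 0.06, 0.00, 0.84 and 3.12, with a mean of 1.01 (SD 1.46, n = 4). Replicas 1 and 2 hardly moved, and the mean without replica 4 was 0.30. The fitted change was above 0 in 28 of 28 rows, with a median of 0.88 against 0.09 over all regions. Without replica 4 the median was 0.26, with 24 of 30 rows above 0, and without replica 2 it was 1.69. edgeR called 0 rows, DESeq2 0, with 0 live rows at an unadjusted p under 0.05 by either, among 0% of the 1068 regions called. With the replica as a block, 1 live row and 11 of the 1068 regions had an unadjusted edgeR p under 0.05, with 0 calls.

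Etoposide replica 4 set the kinds of library apart. All 27 arrays with a mean of at least 20 reads were higher with drug in TOP2B (median log2 change 2.75) and all 27 in input (median 3.10), but 10 of 27 in TOP2A (median -0.23). For hor_8_2, on chromosome 8, the reads in that replica went from 8 to 212 in TOP2B and from 19 to 436 in input, and from 9 to 5 in TOP2A. For hor_18_5 they went from 4 to 101 in TOP2B, from 8 to 324 in input and from 6 to 14 in TOP2A. Both arrays were far higher with drug in the input and the TOP2B library and had few reads in either TOP2A library. In the same libraries the other higher-order rows had changes of -1.02 (TOP2A), 4.12 (TOP2B) and 2.58 (input), and monomeric alpha satellite had -0.41, 2.65 and 2.12. The part of the libraries themselves in this pattern was not tested. Between the treated and untreated libraries of replica 4, deviations from the group means correlated at -0.238 in TOP2B and -0.480 in input, against 0.458 in TOP2A. The pairing in TOP2B and input thus rests on the label alone.

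Set against the input of the same fit, the etoposide effect gave no call in either pulldown. For the effect in TOP2A minus that in input, 10 of the 28 rows were above 0 and 18 below, with a median of -0.19, and hor_16_5 alone had an unadjusted p under 0.05. In TOP2B minus input, 11 were above 0 and 17 below, with a median of -0.07 and 0 rows at an unadjusted p under 0.05. Between pulldowns, the etoposide effect in TOP2A less that in TOP2B was above 0 in 10 rows and below 0 in 18 (median -0.15), again with hor_16_5 as the 1 row at an unadjusted p under 0.05. These splits turned without replica 4, to medians of 0.51 for TOP2A minus input (24 above 0, 6 below), 0.12 for TOP2B minus input and 0.33 for TOP2A less TOP2B (22 above, 8 below). Without replica 2 the median for TOP2A minus input was -1.26, with 2 above 0 and 21 below, and that for TOP2A less TOP2B was -1.07. edgeR and DESeq2 called 0 live rows in each, and edgeR called 0% of the 1068 regions.

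With mitoxantrone the live arrays were higher in 1 replica and lower in the others in both pulldowns. In TOP2A the shares were 0.490%, 0.443% and 0.461% without drug and 0.799%, 0.225% and 0.160% with it. The untreated libraries were close together and the drug libraries lay on both sides of them. The log2 changes were 0.70, -0.98 and -1.53, with a mean of -0.60 (SD 1.16, n = 3). Leaving out 1 replica at a time gave -1.25, without replica 1, to -0.14, without replica 3.

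In TOP2B the shares were 0.496%, 0.175% and 0.501% without drug and 0.999%, 0.108% and 0.113% with mitoxantrone. The log2 changes were 1.01, -0.70 and -2.15, a mean of -0.61 (SD 1.58, n = 3) that became 0.16 without replica 3. In input the shares were 0.285%, 0.0438% and 0.552% without drug and 0.380%, 0.0501% and 0.237% with it. The log2 changes of 0.41, 0.20 and -1.22 had a mean of -0.20 (SD 0.89, n = 3), and 0.31 without replica 3. Replica 3 alone was lower in all 3 kinds of library, and replica 1 alone was higher in all 3.

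Of single arrays with a mean of at least 20 reads in the mitoxantrone series, hor_15_4 (chromosome 15) had the lowest mean change in TOP2A, -1.88 (SD 1.76), followed by hor_10_1 (S1C10H1L) with -1.59 (SD 2.03) and hor_13_3 with -1.47 (SD 1.76). The reads of hor_10_1 were 80, 16 and 289 without drug and 158, 7 and 39 with it. The highest mean was that of the chromosome 17 array hor_17_2 (S3C17H1L), 0.31 (SD 0.52). Its reads were 122, 3 and 418 without drug and 191, 19 and 303 with it. hor_6_1, the S01 array of chromosome 6, had -0.10 (SD 0.50), and hor_18_6 had -0.14 (SD 1.49). The arrays at the upper end, hor_17_2 and hor_6_1, also had the narrowest spread of those named here.

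The ends were partly different in TOP2B. There hor_18_6 was lowest with -1.60 (SD 2.54), then hor_10_1 with -1.39 (SD 2.29) and hor_1_5 with -1.23 (SD 1.96). The highest were hor_3_4 with 0.22 (SD 2.45), hor_16_4 with -0.07 (SD 0.93) and hor_2_3 with -0.26 (SD 0.81). All of these means were within the SD of their replicas.

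In the mitoxantrone series 30 live rows passed the filter. edgeR called 0 of the 30 in TOP2A, TOP2B and input, with 0% of the 1416 regions called in each. DESeq2 called 0 as well, and 0 live rows had an unadjusted p under 0.05 by either tool. The fitted change was above 0 in 4 rows and below 0 in 26 in TOP2A (median -0.30). In TOP2B 15 were above and 15 below (median 0.00), and for input 3 were above and 27 below (median -0.37). The medians over all regions were -0.05, 0.01 and -0.05. Without replica 3 the splits turned to 19 above 0 and 12 below in TOP2A (median 0.08), 30 and 1 in TOP2B (0.57) and 27 and 4 for input (0.40). Without replica 1 they were 1 and 31 in TOP2A (-1.32), 0 and 32 in TOP2B (-1.49) and 0 and 32 for input (-1.06). With the replica as a block the TOP2B median was -0.34, with 3 rows above 0 and 27 below, so the even split in TOP2B was lost when libraries were compared within replicas. The effect in a pulldown minus that in input had a median of 0.10 in TOP2A (18 above 0 and 12 below) and of 0.32 in TOP2B (23 above and 7 below), with 0 calls and 0 rows at an unadjusted p under 0.05. The mitoxantrone effect in TOP2A less that in TOP2B had a median of -0.47, with 8 rows above 0 and 22 below, 0 calls and 0 rows at an unadjusted p under 0.05; DESeq2 called 0 in these comparisons. The signs turned with single replicas: without replica 1 the medians were 0.28 for TOP2A less TOP2B (21 above 0, 11 below), -0.56 for TOP2B minus input (6 above, 26 below) and -0.08 for TOP2A minus input, and without replica 3 the last was -0.33.

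**Figure D2:**
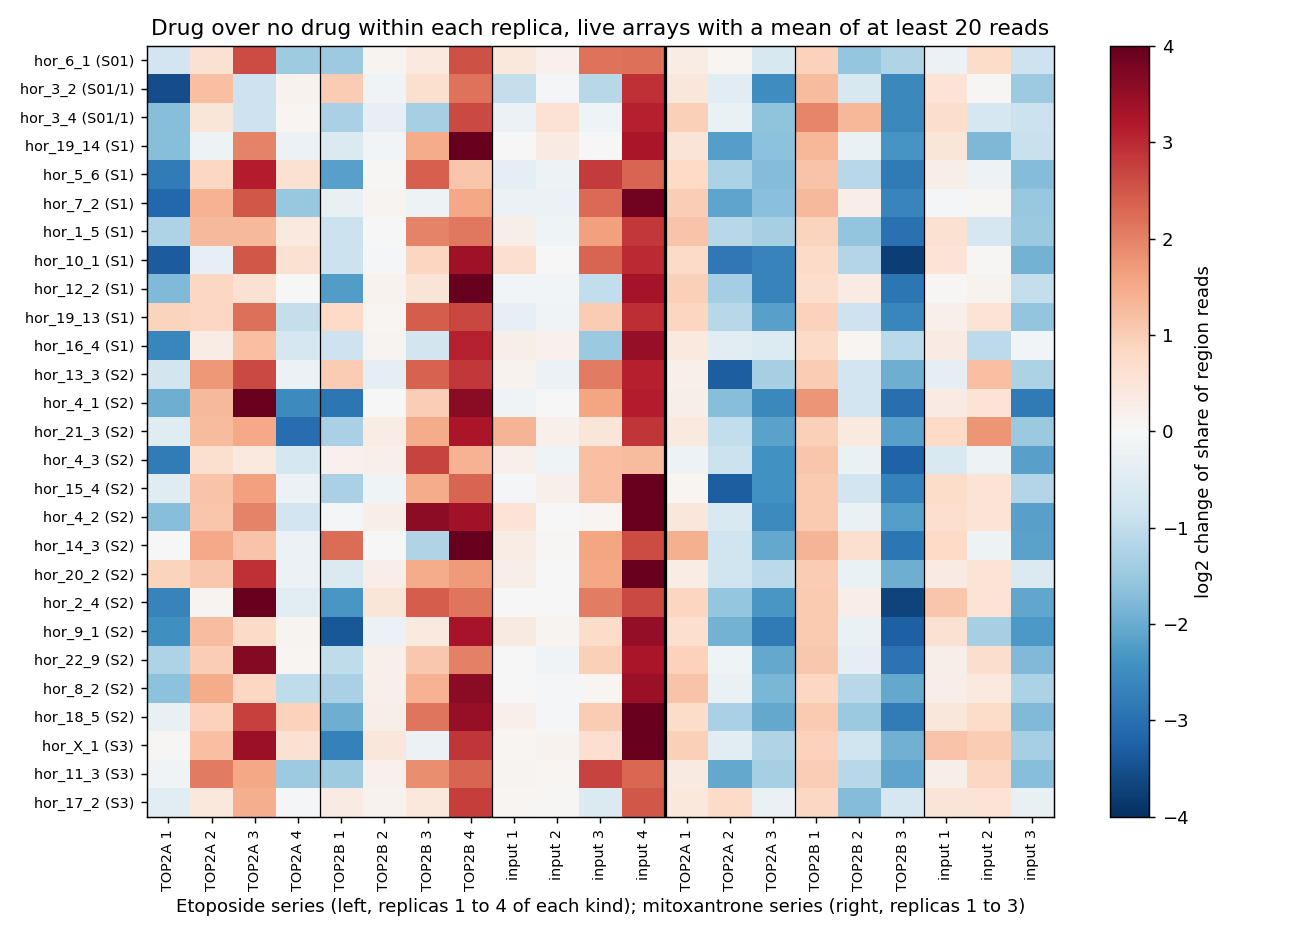
Log2 change of the share of region reads, drug over no drug, for the 27 live arrays with a mean of at least 20 reads (rows, with family in brackets) in every replica and library kind (columns); red is higher with drug, blue lower, and colours end at 4 and -4. Columns differ more than rows: all 27 arrays are blue in the 3 columns of mitoxantrone replica 3, and all 27 red in TOP2B and input of etoposide replica 4.

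Mitoxantrone replica 3 was the most deeply sequenced and had all 27 arrays lower with drug in TOP2A, TOP2B and input, with median log2 changes of -2.03, -2.61 and -1.50. Arrays differed in how much lower they were. The least lowered were hor_17_2 and hor_16_4, which were among the 3 least lowered in all 3 kinds of library. hor_17_2 went from 418 to 303 reads in TOP2A, from 581 to 199 in TOP2B and from 1234 to 662 in input, changes of -0.26, -0.66 and -0.29. hor_16_4, on chromosome 16, went from 458 to 271, from 676 to 175 and from 1226 to 742, changes of -0.55, -1.07 and -0.12. Both kept more of their share than the other arrays, in the pulldowns and in input alike. hor_6_1 had -0.66, -1.21 and -0.81, next after them in both pulldowns, while in input hor_20_2 at -0.59 came before it.

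At the other end of replica 3, hor_9_1 (S2C9H1L) and hor_4_1 (S2C4H1L) were among the 5 most lowered in all 3 kinds. hor_9_1 went from 264 to 32 reads in TOP2A, from 451 to 25 in TOP2B and from 839 to 113 in input, changes of -2.82, -3.27 and -2.28. hor_4_1 had 85 and 12, 142 and 9, and 219 and 20 reads, changes of -2.57, -3.03 and -2.81. The most lowered array in TOP2B was hor_10_1, which went from 416 to 16 reads, a change of -3.78. For each of these 3 arrays the change in input was nearer to 0 than that in TOP2B.

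Across the 27 arrays, the changes in replica 3 had a Pearson correlation of 0.823 between TOP2A and TOP2B, 0.735 between TOP2A and input and 0.738 between TOP2B and input. In the other 6 replicas the correlations between kinds ran from -0.298 to 0.557. These describe arrays that share libraries and depth, and arrays are not independent replicates. Low-quality reads, as a percent of the library, moved in replica 3 by 0.36 points (TOP2A), -0.03 points (TOP2B) and 0.46 points (input). In the same libraries the other higher-order rows changed by -1.27, -1.68 and -1.03 on the log2 scale, and monomeric alpha satellite by -2.43, -2.71 and -1.93, so the live arrays did not move alone.

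**Figure D3:**
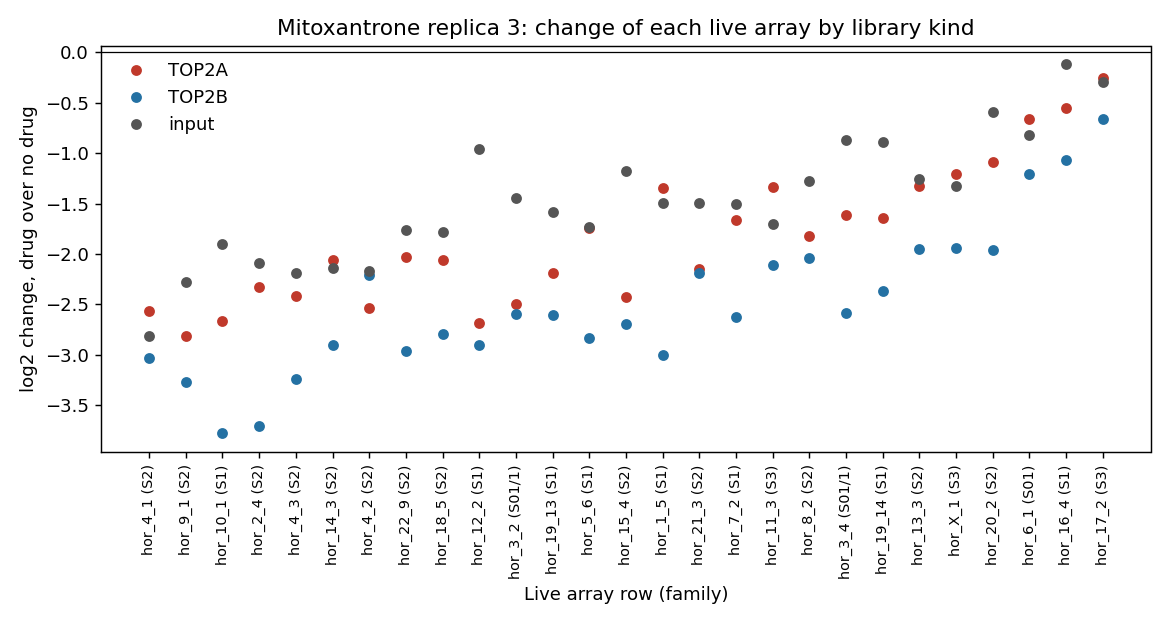
Log2 change of the share of region reads with mitoxantrone in replica 3 for each of 27 live arrays (family in brackets), ordered by the mean over TOP2A, TOP2B and input (points). All points lie below 0, and hor_17_2 and hor_16_4 at the right end have values between -1.07 and -0.12.

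The makeup of the live reads shifted in this replica with these unequal changes. Family S3 went from 13.3% to 24.7% of live reads in TOP2A, from 13.5% to 25.7% in TOP2B and from 14.7% to 19.6% in input. Family S2 went from 44.5% to 31.1%, from 45.3% to 32.2% and from 45.6% to 34.7%. hor_17_2 alone took 7.21% of live reads without drug and 17.4% with it in TOP2A (95% Wilson interval 15.7% to 19.3%), and 6.47% and 18.1% in TOP2B. In input it took 6.96% and 13.2%, so the rise of S3 lay mainly in this row in each kind of library. hor_16_4, of family S1, took 7.90% and 15.6% in TOP2A and 7.53% and 15.9% in TOP2B, and in input 6.92% and 14.8%. The drug pulldowns of this replica had the highest S3 shares of the 42 libraries. The family medians of the change in TOP2A were -0.66 for S01, -1.21 for S3, -1.70 for S1, -2.05 for S01/1 and -2.15 for S2. This is 1 replica, and no test was made.

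The chromosome Y array hor_Y_1 (S4CYH1L) is the only S4 row and was described for that reason. It had reads in 25 libraries, mostly few, and in mitoxantrone replica 3 it had 21, 31 and 48 reads in TOP2A, TOP2B and input without drug and 0, 0 and 11 with drug. Against a floor of 3 counts per library this was at least 6.06-fold lower in TOP2A and at least 5.61-fold lower in TOP2B. In the same libraries the shares of hor_9_1 and hor_10_1 were lower by factors larger than 6.06 in TOP2A and 5.61 in TOP2B. In mitoxantrone replica 1, hor_Y_1 had 2, 5 and 1 reads without drug and 5, 5 and 3 with it, which gives no direction at this depth.

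Across all 42 libraries the family makeup was less variable than the live share itself. S2 held 31.1% to 60.4% of live reads (median 44.3%), S1 23.1% to 46.8% (33.0%) and S3 7.59% to 25.7% (14.4%). S01 held 1.27% to 9.86%, S01/1 0% to 6.73% and S4 0% to 1.33%. The live share of region reads, in contrast, had a highest value many times its lowest. The ends of S01 and S01/1 and the upper end of S4 came from libraries with few live reads, where 1 read is a large share. S4 was at 0% in such libraries, but also in drug TOP2A and TOP2B of mitoxantrone replica 3, with 1738 and 1100 live reads.

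Live rows took most of the reads of higher-order alpha satellite, 62.2% to 90.6% in a library with a median of 81.6%. The live and the other higher-order rows had changes of opposite sign with drug in TOP2A of etoposide replica 2, 0.84 for the live rows and -0.46 for the other rows on the log2 scale. The live rows were 69.9% of higher-order reads without drug and 85.2% with it in that pair, and monomeric alpha satellite had a change of -0.79. Low-quality reads were 28.8% of the untreated library and 52.1% of the drug library, a difference of 23.26 points that no other TOP2A pair reached. Their part in this result was not tested. In etoposide replica 3 the live rows had changes of 2.03 in TOP2A and 1.19 in TOP2B, the other higher-order rows 3.27 and 2.31, and monomeric alpha satellite 2.55 and 2.17, while low-quality reads went from 51.8% to 36.6% and from 46.9% to 33.6% of the library. Their part there was not tested either.

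Several rows carry the same array name on different chromosomes, which gives a comparison within a name. For S1C1/5/19H1L, hor_1_5 and hor_5_6 differed little but in 1 direction in each pulldown with mitoxantrone: the change of hor_1_5 minus that of hor_5_6 was 0.31 (SD 0.13, n = 3) in TOP2A, higher in 3 of 3 replicas, and -0.29 (SD 0.14) in TOP2B, higher in 0 of 3. With etoposide in TOP2B, hor_1_5 minus hor_19_13 was -0.68 (SD 0.70), below 0 in 4 of 4 replicas, and hor_5_6 minus hor_19_13 was -1.15 (SD 1.41). For S2C13/21H1L, hor_13_3 minus hor_21_3 was 1.04 (SD 1.31) in TOP2A with etoposide and -0.56 (SD 1.61) with mitoxantrone. For S2C14/22H1L, hor_14_3 minus hor_22_9 was 0.91 (SD 2.62) in TOP2B with etoposide and 0.47 (SD 0.51) with mitoxantrone. Most of these differences were smaller than their SD. They were picked from a larger set of pairs and drug comparisons, and 1 direction in 3 of 3 replicas can arise without a difference between rows. Reads that fit both rows of a name cannot be told apart, and no test was made of these pairs.

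The effects of the 2 drugs on live arrays were set against each other in 1 fit of all 42 libraries, although their doses differed. The etoposide effect minus the mitoxantrone effect was above 0 in 26 of 30 rows in TOP2A (median 0.80), in 29 of 30 in TOP2B (0.97) and in 30 of 30 in input (1.43). The medians over all regions were -0.13, 0.08 and 0.15. The order of these medians rests on single replicas: without mitoxantrone replica 1 they were 2.01, 2.45 and 1.97 in TOP2A, TOP2B and input, and without etoposide replica 4 they were 1.11, 0.61 and 0.63. Without mitoxantrone replica 3 the TOP2B median was 0.06, with 18 of 30 rows above 0, and the TOP2A and input medians were 0.39 and 0.49. edgeR called 0 live rows and 0% of the 1372 regions in each, DESeq2 called 0, and 0 live rows had an unadjusted p under 0.05 by either. With the replica as a block, edgeR had 2 live rows at an unadjusted p under 0.05 in input, 1 in TOP2A and 0 in TOP2B. Of the 1372 regions, 40, 13 and 74 were under 0.05 there, with 0 calls. The drug series also differ in replicas and, for most replicas, in sequencing order. Only etoposide replicas 3 and 4 and mitoxantrone replica 2 shared an order, and the drugs were not compared within it. Drug was therefore not told apart from replica and order here.

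Pulldown was then compared with input within replicas, without drug, to see whether live arrays held more TOP2 than the rest of the regions. In TOP2A the log2 ratio of the live share to that in input was -0.42, -0.24, 0.25 and 0.31 in etoposide-series replicas 1 to 4, and 0.78, 3.34 and -0.26 in mitoxantrone-series replicas 1 to 3. The mean was 0.54 (SD 1.30, n = 7), above 0 in 4 of 7. Mitoxantrone-series replica 2 stood far above the others, and without it the mean was 0.07. In TOP2B the ratios were -0.63, -0.30, 0.86, -0.56, 0.80, 2.00 and -0.14, with a mean of 0.29 (SD 0.97, n = 7), above 0 in 3 of 7. That mean was 0.00 without the same replica.

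In mitoxantrone-series replica 2 the untreated TOP2A library was small, with 43988 region reads and 195 live reads, and the input had 146 live reads among 333498 region reads. All 27 arrays with a mean of at least 20 reads were above input in TOP2A there, with a median of 3.05, and 26 of 27 in TOP2B. In replica 1 of that series 27 and 25 were above input, and in the deeper replica 3 there were 4 and 4. In the etoposide series 14, 8, 15 and 19 were above input in TOP2A and 9, 5, 21 and 8 in TOP2B. The untreated TOP2A libraries of mitoxantrone-series replicas 1 and 3 had 430827 and 1257813 region reads. Those of etoposide-series replicas 1 to 4 had 247902, 589193, 95012 and 154852. A link between depth and the number of arrays above input was not tested.

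**Figure D4:**
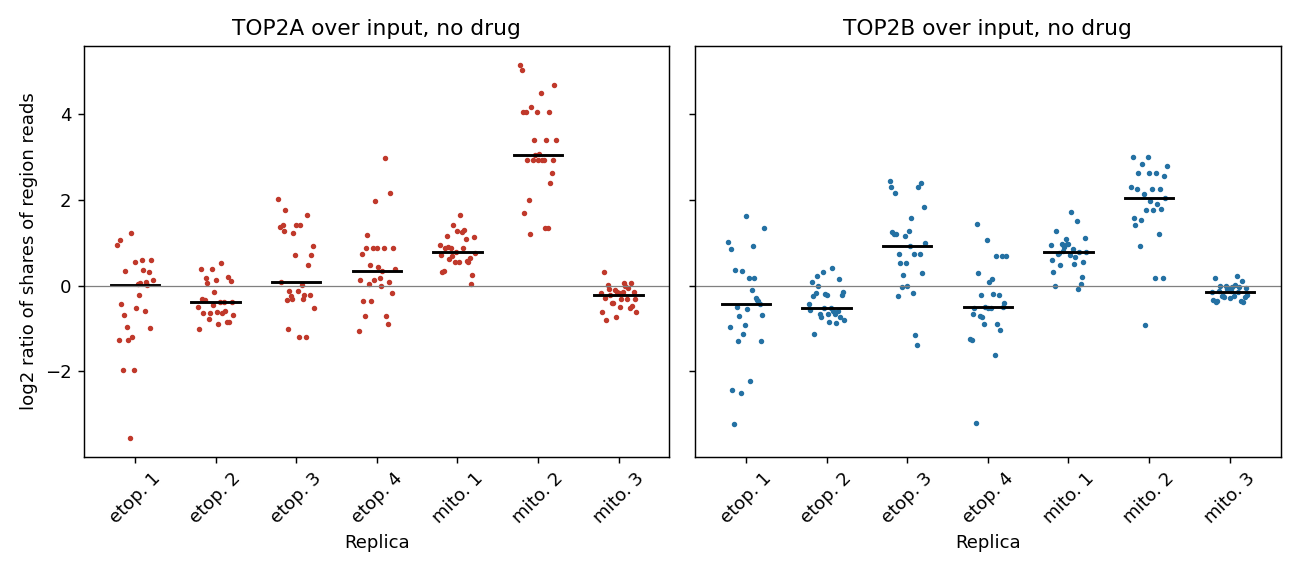
Log2 ratio of each live array's share of region reads in TOP2A (left) or TOP2B (right) to that in input, no drug, for 27 arrays (points) in each replica of the etoposide (etop.) and mitoxantrone (mito.) series; black bars are medians. Only mito. 1 and mito. 2 have nearly all arrays above 0, and the median of mito. 2 in TOP2A is 3.05.

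The untreated libraries of all 7 replicas were fitted together with the replica as a block, and 29 live rows passed the filter. edgeR called 0 of them for TOP2A against input, and 0% of the 1028 regions. The median was 0.16, with 20 rows above 0 and 9 below, against -0.01 over all regions. It was -0.01 without mitoxantrone-series replica 1 and 0.02 without replica 2 of that series, and 0.35 with no block. DESeq2 called 26 regions and the fit with no filter 39, with 0 live rows in either. The row with the lowest p was the chromosome 12 array hor_12_2 (S1C12H1L), at 0.74 (1.67-fold, SE 0.30, unadjusted p = 0.0237, edgeR adjusted p = 0.264). Its reads were 25, 222, 6, 10, 31, 18 and 366 in TOP2A and 77, 348, 11, 11, 30, 8 and 752 in input. Its adjusted p was 0.163 with DESeq2, 0.180 with no filter and 0.999 with no block, and it was the 1 live row at an unadjusted p under 0.05 by either tool. The next highest were hor_9_1 at 0.59 (SE 0.39) and hor_19_14 at 0.52 (SE 0.34), and the lowest was hor_19_13 at -0.34 (SE 0.37). For TOP2B against input the median was 0.10, with 25 rows above 0 and 4 below, and it was -0.04 and 0.00 without those replicas. edgeR and DESeq2 called 0 live rows there, with 0 at an unadjusted p under 0.05, and edgeR called 0% of regions. The ends were hor_9_1 at 0.38 (SE 0.38) and hor_4_3, of chromosome 4, at -0.39 (SE 0.27).

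With drug, pulldown against input had no direction that held when replicas were left out. In the 21 drug libraries TOP2A against input had a median of -0.24, with 5 of 29 rows above 0, and TOP2B against input had -0.30, with 1 of 29 above 0. The medians over all regions were -0.11 and -0.10. Without etoposide replica 4 the TOP2A median was 0.16, with 21 of 29 rows above 0, and without etoposide replica 1 it was 0.05, with 16 of 29. With no replica block the medians were -0.01 in TOP2A and 0.10 in TOP2B, the latter with 21 of 29 rows above 0. Among arrays with a mean of at least 20 reads, hor_7_2 of chromosome 7 was lowest in both, at -0.59 (SE 0.43) in TOP2A and -0.54 (SE 0.42) in TOP2B. edgeR called 0 live rows and 0% of the 1073 regions, DESeq2 called 0 live rows, and 0 had an unadjusted p under 0.05 by either. As a within-replica share, TOP2A over input with drug was -1.85, 0.59, 1.44 and -3.18 in the etoposide series and 1.07, 2.16 and -0.57 in the mitoxantrone series (mean -0.05, SD 1.92, n = 7). For TOP2B it was -1.81, -0.19, 1.22, -0.68, 1.39, 1.10 and -1.07 (mean -0.01, SD 1.26). Both means were near 0 and far inside their SD.

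The enzyme forms were compared directly as TOP2A over TOP2B. Without drug the log2 ratio of live shares was 0.22, 0.06, -0.62 and 0.87 in the etoposide series and -0.02, 1.34 and -0.12 in the mitoxantrone series, with a mean of 0.25 (SD 0.65, n = 7). With drug it was -0.04, 0.79, 0.22 and -2.50, and -0.32, 1.06 and 0.50, with a mean of -0.04 (SD 1.18, n = 7). Live arrays were thus on neither side beyond the spread of replicas. The fitted medians were 0.10 without drug, with 20 of 29 rows above 0, and 0.05 with drug, with 15 of 29 above 0. With drug the median turned to -0.15 with no block (8 of 29 above 0) and to -0.17 without etoposide replica 2. edgeR and DESeq2 called 0 live rows in both, with 0 at an unadjusted p under 0.05, and edgeR called 0% of regions.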

How the data were processed

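The values used were the deposited counts of reads per named region in 42 libraries, with no normalization applied by the authors that the table shows. The submitters' processing notes name the T2T-CHM13 genome, Trimmomatic 0.36 (a read trimmer), BWA 0.7.17 (an aligner) and HTSeq (a read counter, listed as 2.7.13). The mapping quality minimum is not given in the sources used here. The 5 tallies of reads given to no region, 94.5% to 97.4% of a library, stayed out of library sizes and tests. Regions were tested with edgeR 4.0.16 (R 4.3.3, TMM, filterByExpr with a minimum count of 10, quasi-likelihood, Benjamini-Hochberg over all regions tested); DESeq2 1.42.0 was an alternative. The fits of 1 drug series and of all 42 libraries had no replica term, and the fits of pulldown against input and of TOP2A against TOP2B had the replica as a block.

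The share of an array is its reads plus 0.5 over the region reads of the library, and its changes are log2 ratios within a replica. Confidence intervals of shares are Wilson's at 95%. Poisson limits of read counts are also at 95%, and both cover counting error only. The label for a replica names it in all 6 of its libraries, which gives the pairing. In 18 of 21 treated and untreated pairs the deviations from the group means correlated above 0.1 (-0.480 to 0.930). The others were TOP2A of etoposide replica 3 (-0.068) and TOP2B (-0.238) and input (-0.480) of etoposide replica 4. These pairs had the largest live share change with etoposide in their kind of library, and their pairing rests on the label alone. In 17 of 21 pairs the best correlated untreated library had the same replica number. No 2 libraries of a group were identical in 54 pairs checked. Arrays named are the 8 with the highest mean CPM, up to 3 at each end of each pulldown's drug comparison (mean of at least 20 reads), up to 3 at each end of each pulldown against input by edgeR, any array past an adjusted p of 0.05, and the highest and lowest of each family. The text describes those that its results turn on. The arrays and the lists were chosen with earlier results of these data known. The scripts were tested on simulated data with log2 changes of 3 and no differences between replicas, where 90.5% to 100% of changed regions were recovered. Whether changes of this size, or smaller ones, would be found at the spread of these replicas was not tested.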

Additional observations from a re-analysis of the deposited data

Results flagged for a closer look

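In 6 of 51 groups of 4 to 7 libraries or replicas, 1 value lay apart from the rest of their group by Dixon's criterion at 95%, which chance meets in about 1 in 20 groups. In the etoposide series, family S1 had 26.7% of live reads in the input of replica 3 with etoposide, where the nearest of the other replicas had 32.9%. Family S2 had 54.9% in the untreated TOP2A library of replica 3, against 39.1% in the nearest. Family S01/1 had 5.24% in the untreated input of replica 4, against 3.05% in the nearest. The live share of the untreated input was 0.535% in replica 2, against 0.146% in the nearest. The log2 ratio of live share in TOP2A to that in TOP2B with drug was -2.50 in etoposide replica 4, with -0.32 as the nearest of the other 6 replicas. TOP2A over input without drug was 3.34 in mitoxantrone-series replica 2, with 0.78 as the nearest.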

How the results depend on the processing

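Calls of live arrays stayed at 0 in all 21 comparisons under DESeq2, no filter on low counts, the other choice of replicate block and each replica left out. With the replicate block the live median of etoposide in TOP2A was 0.29 against 0.60, and that of mitoxantrone in TOP2B -0.34 against 0.00. The fitted live medians changed sign when 1 replica was left out in the comparisons where the report says so, so their splits of rows above and below 0 give no stable direction. With DESeq2 the etoposide effect in TOP2A minus that in input had a live median of 0.08 against -0.19. Mean changes of the live share kept within 1 SD under other denominators, a pseudocount of 5, arrays of 1 chromosome only and no array of the highest mean count. Leaving out 1 replica gave ranges of -0.30 to 0.83 (etoposide TOP2A), 0.07 to 1.44 (TOP2B) and 0.30 to 1.34 (input), -1.25 to -0.14 (mitoxantrone TOP2A), -1.42 to 0.16 (TOP2B) and -0.51 to 0.31 (input), 0.07 to 0.70 (TOP2A over input, no drug) and 0.00 to 0.44 (TOP2B over input). Over arrays whose name gives 1 chromosome, S1 held a mean of 25.3% of live reads against 33.0%, and S3 19.9% against 14.9%, since the rows left out are of families S1 and S2. Depth limits single arrays: of the values of the 27 arrays with a mean of at least 20 reads, 39.1% were under 10 reads.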
